A study of Mus musculus with 4 samples.

Results

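Splicing factors and heterogeneous nuclear ribonucleoproteins (hnRNPs) were followed through the differentiation of mouse dendritic cells in culture. Members were the genes of the array annotation whose symbol begins with Srsf, Hnrnp, Snrp, Sf3a, Sf3b, U2af or Prpf, leaving out symbols that contain -ps. The rule uses names alone and found 50 of 8220 genes, namely 9 SR proteins, 16 hnRNPs, 7 proteins of small nuclear ribonucleoproteins (snRNPs), 10 SF3 and U2AF genes and 8 PRPF genes. A gene was read by its brightest probe set, judged by the mean of all 4 arrays, and 16 members had more than 1 to choose from. Another 5 symbols of these families were read only by probe sets shared with other genes and were left out.

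The 4 arrays hold total RNA from dendritic cell progenitors of bone marrow, from cells differentiated from such progenitors for 7 days, from cells differentiated for 10 days, and from cells differentiated for 10 days and stimulated with tumour necrosis factor (TNF) alpha for 16 hours. The last of these labels names the progenitors as amplified in vitro. All 4 are bulk cultures with 1 array each, the labels give no strain, age or sex and no number of cultures or mice, and no treatment other than TNF is named. There is no replicate, so no p-value is given and every difference is one between 2 arrays.

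Splicing removes introns from pre-mRNA. U1 binds the 5′ splice site, U2AF reads the 3′ end of the intron, and the U2 snRNP with its SF3A and SF3B complexes settles on the branch site before the U4, U5 and U6 snRNPs join and the PRPF proteins help to build and rearrange the catalytic centre. SR proteins mostly promote the use of exons they bind, many hnRNPs counteract them, and both groups also act in RNA export, stability and translation. Proliferating cells commonly carry high levels of many of these factors, and changes of splicing accompany the activation of immune cells.

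Progenitors had the higher levels of most of these genes. Of the 50 members, 22 were at least 2-fold lower at day 10 than in progenitors and 0 were at least 2-fold higher, where 12.7% of all 8220 genes were at least 2-fold lower and 15.4% higher. The median log2 ratio was -0.84 over the 50 members and 0.00 over all genes, 2022 of which lay at or below the floor on both arrays; among genes with a mean level above 428 units it was -0.97 over 44 members and 0.05 over all 4091. The largest differences belonged to Hnrnpl, which encodes a binder of CA-rich RNA, at 4.64-fold lower, and to U2af1, the subunit of U2AF that contacts the AG at the end of the intron, at 4.38-fold lower. Srsf2, Hnrnpa2b1, Snrpd3 and Prpf19 were lower by 2.57-fold to 3.71-fold. With TNF the group stood near its level without it, with a median log2 ratio of -0.03 to day 10.

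The start regions of 4 members are shown because they carry both ends of this range: Hnrnpl and U2af1 had the lowest ratios of day 10 to progenitor, Srsf2 had 2 probe sets that both placed it highest in progenitors, and Prpf6 had the highest ratio among members with a mean level above 428 units. Each sequence is the 250 bases before the gene's start in RefSeq on GRCm38.p6, 5′ to 3′ on the gene's strand. Capitals mark matches on either strand to 4 short words, CCAAT (bound by NF-Y), GGGCGG (Sp1), CCGGAAG (ETS factors) and CACGTG (the E-box). The Hnrnpl window is chr7:28810640-28810889 on the plus strand, U2af1, the first of 2 overlapping windows, is chr17:31658765-31659014 on the minus strand, Srsf2 is chr11:116853095-116853344 on the minus strand and Prpf6 is chr2:181601069-181601318 on the plus strand.
Hnrnpl: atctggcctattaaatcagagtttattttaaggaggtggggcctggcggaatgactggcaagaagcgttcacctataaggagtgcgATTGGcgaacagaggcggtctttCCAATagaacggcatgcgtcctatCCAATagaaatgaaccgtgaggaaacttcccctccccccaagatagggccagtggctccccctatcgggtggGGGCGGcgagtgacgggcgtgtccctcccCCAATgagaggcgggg
U2af1: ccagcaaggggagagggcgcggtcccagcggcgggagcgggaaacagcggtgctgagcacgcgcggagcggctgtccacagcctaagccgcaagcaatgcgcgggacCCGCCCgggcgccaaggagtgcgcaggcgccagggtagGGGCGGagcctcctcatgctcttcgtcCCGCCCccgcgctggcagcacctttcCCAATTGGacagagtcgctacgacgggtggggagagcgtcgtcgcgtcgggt
Srsf2: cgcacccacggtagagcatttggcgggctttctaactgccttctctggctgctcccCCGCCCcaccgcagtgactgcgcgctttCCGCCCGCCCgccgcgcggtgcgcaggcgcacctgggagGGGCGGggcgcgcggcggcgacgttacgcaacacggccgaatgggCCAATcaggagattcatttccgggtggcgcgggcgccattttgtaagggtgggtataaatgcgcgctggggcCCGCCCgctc
Prpf6: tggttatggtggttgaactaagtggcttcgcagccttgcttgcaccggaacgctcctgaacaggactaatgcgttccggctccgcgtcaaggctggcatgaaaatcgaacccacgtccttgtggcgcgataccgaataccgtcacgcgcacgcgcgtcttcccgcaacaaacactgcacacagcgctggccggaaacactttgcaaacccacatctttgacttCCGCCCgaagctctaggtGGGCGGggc
Hnrnpl held 4 CCAAT words and 1 GGGCGG word, U2af1 held 2 CCAAT words, which overlap on opposite strands, and 3 GGGCGG words, Srsf2 held 1 and 5, some of the latter overlapping, and Prpf6 held 0 and 2. RefSeq start windows were matched for 45 members, 57 windows in all, and not for Snrpb, U2af2, Hnrnpll, Sf3b5 and Hnrnpul2. CCAAT stood in 18 of 29 windows (62.1%) of the members at least 2-fold lower at day 10, in 9 of 28 windows (32.1%) of the other members, and in 33.8% of all 32851 windows. CCGGAAG stood in 20.7% of windows of the lower members, 39.3% of those of the other members and 6.91% of all windows, and GGGCGG in 18 of 29, 21 of 28 and 32.7%. CACGTG was found in 3.45%, 3.57% and 6.02%. The median GC content was 60.4% over the members' windows and 52.4% over all. These are counts of letters in windows, several of which overlap within a gene, and the split uses the measured ratios.

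Facts of the arrays bear on how levels are read. Levels are intensities after scaling each array to a common 75th percentile, values are raised to a floor of 105 units for log2 ratios and counts, and folds of single genes use a floor of 428 units, with "at least" where the dimmer array lies under it. Of the members, 41 lay above 428 units on all 4 arrays and 5 on none, and 44 had a mean above it. As to the labelled cell type, all 10 dendritic cell markers looked up, such as Itgax and H2-Aa, lay above 428 units at day 7 and day 10 and 2 did in progenitors. At day 10 against progenitor 9 of the 10 were at least 2-fold higher, beside 15.4% of all genes. The other, Flt3, went the other way, with 1972 units in progenitors and 517 at day 10, 3.81-fold lower. Of 9 granulocyte markers, 9, 9, 7 and 5 lay above it on the progenitor, day 7, day 10 and TNF arrays, with summed levels of 212571, 120710.5, 141582 and 17162 units, and of 7 macrophage markers 4, 7, 7 and 7, with 8851, 63554, 139341 and 97728 units. Of 5 T and NK cell markers 1 lay above 428 units in progenitors and 0 on the other arrays, and of 4 stromal markers 0 did on any. Of the mast cell and basophil, erythroid and B cell markers, 5, 3 and 4 in number, 2, 2 and 1 lay above it in progenitors and 2, 1 and 2 at day 10. In bulk RNA fewer cells of a type and less RNA per cell cannot be told apart, and the part of these mixtures in the differences below was not tested.

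The brightest probe sets and the bacterial transcripts spiked into the samples were brighter on the day 10 arrays, with a median log2 ratio of day 10 to progenitor of 1.18 over the 9 spike probe sets. The members did not follow that shift. Among genes with a mean of 2048 to 8192 units, the median log2 ratio of day 10 to progenitor was -0.75 for 23 members and 0.07 for all 1345 genes. Between 512 and 2048 units it was -1.25 for 18 members and -0.04 for 2143 genes, and above 8192 units -1.16 for 2 members and 0.81 for 360 genes. The ratio of the 5′ to the 3′ control probe set for beta-actin was 1.07, 0.898, 0.910 and 0.996 on the progenitor, day 7, day 10 and TNF arrays, and for Gapdh 1.25, 1.18, 1.06 and 1.07.

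**Figure D1:**
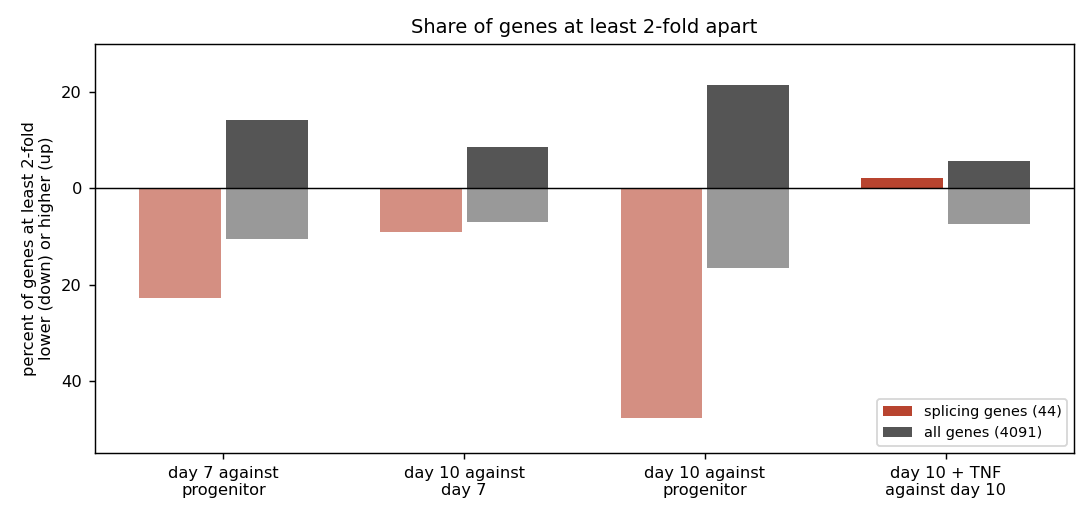
Share of genes at least 2-fold higher (above the line) or lower (below it) in each of 4 comparisons, for the 44 splicing genes (left bar of each pair) and all 4091 genes (right bar) with a mean level above 428 units. At day 10 against progenitor 47.7% of these splicing genes were lower and 0 higher, against 16.6% and 21.4% of all genes.

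Read by order over the arrays, 38 of 50 members (76.0%) had their highest level in progenitors, where 31.9% of all genes did. Levels at day 7 under the progenitor and at day 10 under day 7 were seen in 34 members (68.0%), against 25.0% of all genes. Among genes with a mean above 428 units the progenitor was highest for 36 of 44 members (81.8%) and 36.2% of all genes, and the order over both steps held for 32 of 44 members (72.7%) and 27.1% of all genes. Srsf5, Prpf6, Snrpc, Srsf4, U2af1l4 and Prpf4b were the 6 members with a log2 ratio of day 10 to progenitor above 0, at most 0.46.

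**Figure D2:**
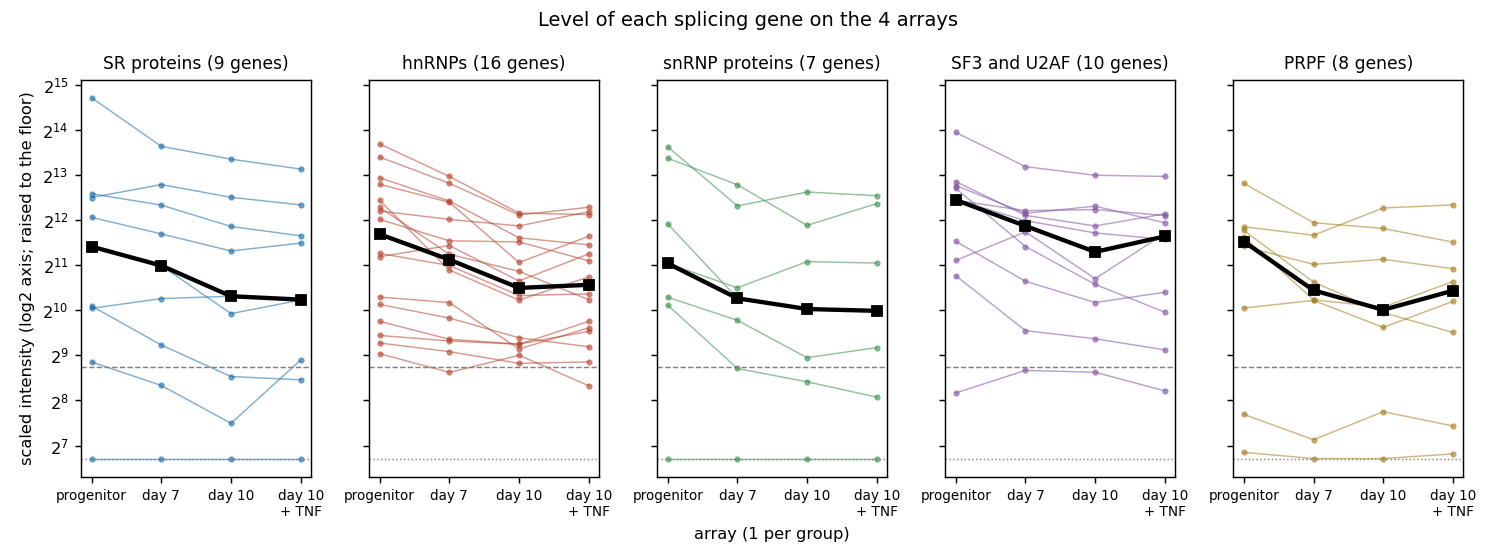
Scaled intensity of each of the 50 genes (thin lines, log2 axis) on the 4 arrays, by class, with the class median in black; the dashed line is 428 units and the dotted line the floor of 105 units. All 5 class medians are highest on the progenitor array, and 2 genes, Srsf6 and Snrpb, lie at the floor throughout.

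SR proteins carry an RNA recognition motif and a tail of arginine-serine repeats. Srsf2, also known as SC35, stood at 26973 units in progenitors, 12769 at day 7, 10486 at day 10, and 9007 after TNF. On this probe set the progenitor array was the high one, and the other 3 lay closer together. A second Srsf2 probe set gave 8141 units in progenitors, 3958 at day 7, 1788 at day 10, and 1805 after TNF, so both placed the progenitor highest, with log2 ratios of day 10 to progenitor of -1.36 and -2.19. They differed at day 10 against day 7, with log2 ratios of -0.28 on the first and -1.15 on the second. Srsf1, the founding member of the family, had 1095 units in progenitors, 600.5 at day 7, 369.8 at day 10, and 352 after TNF and was at least 2.56-fold lower at day 10 than in progenitors. Srsf3, the smallest SR protein, had 2732 units in progenitors, 2039 at day 7, 974 at day 10, and 1200.0 after TNF, lower by 2.81-fold at day 10 than in progenitors. Its other probe set stayed between 104 and 192 units, all under 428, and had the opposite sign. Srsf9 and Srsf11 were 1.65-fold and 1.68-fold lower at day 10 than in progenitors.

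Not all SR genes shared the order. Srsf5 had 5812 units in progenitors, 7094 at day 7, 5831 at day 10, and 5193 after TNF, nearly equal at day 10 and in progenitors, and Srsf4 had 1056 units in progenitors, 1228 at day 7, 1273 at day 10, and 1208 after TNF. A second, dimmer Srsf4 probe set went the other way, with 214 units at day 10 and 527 in progenitors. Srsf10, whose product represses splicing when dephosphorylated, had 463 units in progenitors, 323 at day 7, 180.1 at day 10, and 477 after TNF, close to or under 428 units throughout. Srsf6 had levels below 0 on all 4 arrays and so no ratio. In all, 4 of 9 SR genes were at least 2-fold lower at day 10 than in progenitors, beside 12.7% of all genes. With the floor of 428 units 3 of 9 were, without Srsf10, beside 8.03% of all genes.

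The hnRNPs were the largest class, and all 16 had a log2 ratio of day 10 to progenitor below 0, between -2.21 and -0.03. Hnrnpa2b1 had 13268 units in progenitors, 8040.0 at day 7, 4576 at day 10, and 4474 after TNF, and its second probe set gave 2574 units in progenitors, 1907 at day 7, 406 at day 10, and 784 after TNF. Hnrnpa1, which binds exonic and intronic silencers, had 1257 units in progenitors, 1154 at day 7, 566 at day 10, and 783 after TNF, with most of the difference between day 10 and day 7. Hnrnpm, which binds GU-rich RNA, had 10838 units in progenitors, 7236 at day 7, 4446 at day 10, and 5002 after TNF and Hnrnph1, a binder of G runs, 7875 units in progenitors, 5506 at day 7, 3128 at day 10, and 2807 after TNF. In each of these 4 genes the 2 day 10 arrays were the low ones.

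Hnrnpl had 5563 units in progenitors, 1902 at day 7, 1199 at day 10, and 1715 after TNF, so the progenitor array stood apart from the other 3. Hnrnpd, also called AUF1, which binds AU-rich elements of cytokine and other short-lived mRNAs, had 4999 units in progenitors, 2426 at day 7, 1865 at day 10, and 1207 after TNF and was lower at each stage. Its relative Hnrnpdl had 7122 units in progenitors, 5399 at day 7, 2139 at day 10, and 3202 after TNF, but a second probe set read 1141 units in progenitors, 680.0 at day 7, 1099 at day 10, and 904 after TNF and gave a log2 ratio of day 10 to progenitor of only -0.05. Hnrnpk, a binder of C-rich RNA and DNA, had 2459 units in progenitors, 2043 at day 7, 1286 at day 10, and 1320.3 after TNF, a 1.91-fold difference that lies just outside the 2-fold rule.

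The members of this class with the smallest differences included Hnrnpll, known for excluding exons of the Cd45 gene Ptprc in activated lymphocytes, at 4724 units in progenitors, 4153 at day 7, 3755 at day 10, and 4675 after TNF. Its levels differed by at most 1.26-fold between any 2 of the arrays compared. Hnrnpab, Hnrnpu, Hnrnpul2, Hnrnph2, Hnrnph3, Hnrnpr and Hnrnpc were 1.02-fold to 1.67-fold lower at day 10 than in progenitors, all short of 2-fold. For Hnrnpul2 a second probe set had the opposite sign, with a log2 ratio of 0.30. Altogether 7 of 16 hnRNPs were at least 2-fold lower at day 10 than in progenitors, beside 12.7% of all genes.

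**Figure D3:**
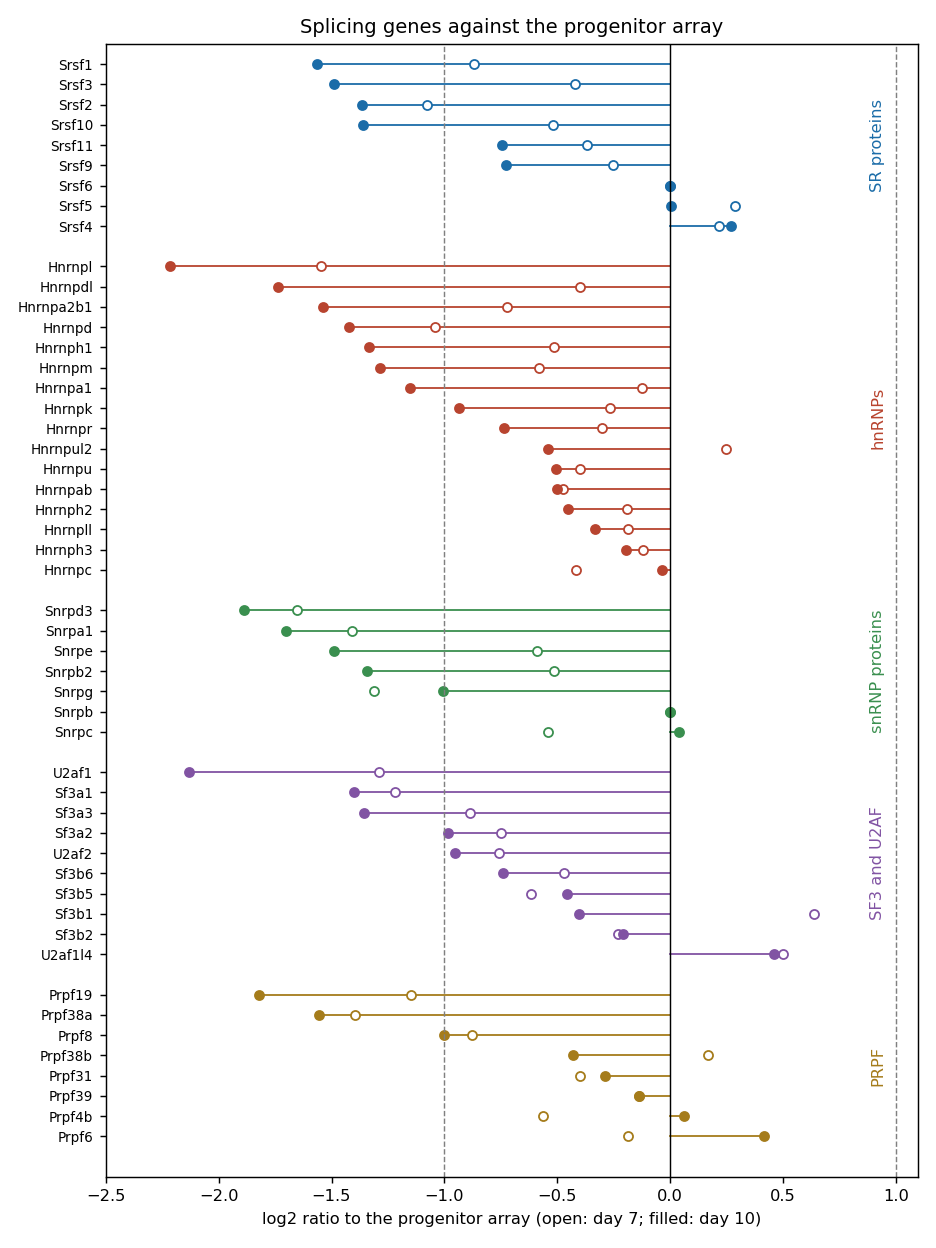
Log2 ratio to the progenitor array for each of the 50 genes, open circles for day 7 and filled circles for day 10, grouped by class and sorted by the day 10 ratio; dashed lines mark 2-fold. The 22 genes at or left of the dashed line at day 10 come from all 5 classes, and no gene reaches the line on the right.

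Among snRNP proteins, Sm proteins form the ring that sits on U1, U2, U4 and U5 RNA. Snrpg had 12684 units in progenitors, 5107 at day 7, 6325 at day 10, and 5977 after TNF, Snrpe 10638 units in progenitors, 7071 at day 7, 3786 at day 10, and 5299.8 after TNF, and Snrpd3 3874 units in progenitors, 1233 at day 7, 1045 at day 10, and 1016 after TNF. All 3 had their highest level in progenitors, and at day 10 they were 2.01-fold, 2.81-fold and 3.71-fold lower than there. The ring member Snrpb lay below 0 on all 4 arrays, on a probe set of the kind that Affymetrix marks as made under relaxed design rules. The probe set names of 7 members, Srsf2, Srsf3, Hnrnpdl, Snrpe, Snrpb2, Sf3a2 and Sf3b2, mark them as able to read other transcripts too.

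Snrpa1 and Snrpb2 encode a pair of U2 proteins that bind each other. Snrpa1 had 1110.4 units in progenitors, 419 at day 7, 341 at day 10, and 269.7 after TNF, at least 2.59-fold lower at day 10 than in progenitors, and Snrpb2 had 1254 units in progenitors, 878 at day 7, 494 at day 10, and 578 after TNF, 2.54-fold lower. A second Snrpa1 probe set lay below 0 on every array and gave no ratio. The U1 protein gene Snrpc did not share the order of Snrpa1 and Snrpb2. It had 2109.5 units in progenitors, 1449 at day 7, 2168 at day 10, and 2121 after TNF, where day 7 was the low array. Of the 7 snRNP genes, 5 were at least 2-fold lower at day 10 than in progenitors, beside 12.7% of all genes.

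SF3A and SF3B together form the branch-site part of the U2 snRNP. The SF3A genes Sf3a1, Sf3a2 and Sf3a3 had log2 ratios of day 10 to progenitor of -1.40, -0.98 and -1.36. Sf3a1 stood at 1746 units in progenitors, 749.6 at day 7, 661 at day 10, and 558 after TNF, and Sf3a3 at 2961 units in progenitors, 1602 at day 7, 1155 at day 10, and 1354 after TNF. The SF3B genes Sf3b1, Sf3b2, Sf3b5 and Sf3b6 had -0.41, -0.21, -0.46 and -0.74, so on the chosen probe sets the 2 sets of ratios do not overlap. On a second probe set Sf3b1 had -0.83, nearer to Sf3a2, whose own chosen probe set can read other transcripts. With 3 and 4 genes and 1 array a group, that separation has no test, and no background over all genes was computed for it. A second Sf3a2 probe set swung between 2402 units at day 7 and -1228 with TNF and was not read further.

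Sf3b1, whose product clamps the branch site, had 2208 units in progenitors, 3432 at day 7, 1667 at day 10, and 3343 after TNF. On this probe set day 7 and TNF were the high arrays, and the level was 2.06-fold lower at day 10 than at day 7. The second Sf3b1 probe set gave 1974 units in progenitors, 1949.6 at day 7, 1108 at day 10, and 1195 after TNF. Its log2 ratio was -0.82 for day 10 against day 7 and -0.02 for day 7 against progenitor.

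The U2AF heterodimer reads the 3′ splice site, U2af2 the polypyrimidine tract and U2af1 the AG. U2af1 had 6682 units in progenitors, 2736 at day 7, 1526 at day 10, and 996 after TNF, lower at each stage and lowest with TNF. U2af2 had 15831 units in progenitors, 9353 at day 7, 8185 at day 10, and 8042 after TNF, 1.93-fold lower at day 10 than in progenitors. On these arrays the small subunit's log2 ratio, -2.13, was thus larger in size than the large subunit's, -0.95. The paralogue U2af1l4 stayed under 428 units on every array.

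Many PRPF genes encode factors of the U4, U5 and U6 snRNPs or of the complex around PRPF19. Prpf8, the scaffold of the catalytic centre, had 7239 units in progenitors, 3944 at day 7, 3611 at day 10, and 2925 after TNF, a difference between day 10 and progenitor just inside the 2-fold rule. Prpf19, a ubiquitin ligase of the spliceosome, had 3504 units in progenitors, 1583 at day 7, 990.0 at day 10, and 729 after TNF, and Prpf38a, a tri-snRNP partner, 3166 units in progenitors, 1204 at day 7, 1076 at day 10, and 1596 after TNF. Both had the progenitor array as the high one, and were 3.54-fold and 2.94-fold lower at day 10 than there. A second Prpf19 probe set lay below 0 on every array and gave no ratio. Prpf6, which bridges U5 with U4 and U6, had 3708 units in progenitors, 3253 at day 7, 4948 at day 10, and 5189.8 after TNF, so the day 10 arrays were its high ones. Prpf31, a U4 and U6 protein, and Prpf38b were 1.22-fold and 1.35-fold lower at day 10 than in progenitors, and Prpf4b and Prpf39 stayed under 428 units. In this class 3 of 8 were at least 2-fold lower at day 10 than in progenitors, beside 12.7% of all genes.

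At day 7, the first step, 10 members were at least 2-fold lower than in progenitors and 0 higher, with 8.63% of all genes lower and 9.68% higher, and the median log2 ratio of the members was -0.47. All 10 were among the 44 with a mean above 428 units, where 10.4% of all genes were lower and 14.3% higher. The 10 were Srsf2, Hnrnpd, Hnrnpl, Snrpg, Snrpd3, Snrpa1, U2af1, Sf3a1, Prpf38a and Prpf19, with Snrpd3 at 3.14-fold and Hnrnpl at 2.92-fold. Another 6 ratios were above 0, none reaching 2-fold, with Sf3b1 at a log2 ratio of 0.64 the highest. The second Sf3b1 probe set did not share that rise, with a log2 ratio of -0.02.

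At day 10 against day 7, 4 members were at least 2-fold lower and 0 higher, where 6.29% of all genes were lower and 8.35% higher, so that the count of lower members, 8.0% of 50, is near the background. The 4 were Hnrnpdl, at 2.52-fold, Srsf3, Sf3b1 and Hnrnpa1, at 2.04-fold to 2.09-fold. The median log2 ratio of -0.28 and the 38 of 50 ratios below 0 describe a shift of many members by less than 2-fold; over all genes 2837 ratios of 8220 were below 0 and 3286 above. Prpf6 was 1.52-fold higher at day 10 than at day 7, and Snrpc had a log2 ratio of 0.58. Among genes with a mean above 428 units 4 of 44 members were lower, against 6.94% of all such genes, and 0 higher, against 8.7%.

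With TNF, 2 members were at least 2-fold higher than at day 10 without it and 0 lower, where 6.62% of all genes were higher and 6.56% lower. The first was Srsf10, at 477 units with TNF and 180 without, at least 1.11-fold higher against the floor of 428 units. The second was Sf3b1, at 3343 units with TNF and 1667 without, 2.01-fold higher. The other probe sets did not share that size: Sf3b1's second read 1195 units with TNF and 1108 without, and Srsf10's read 234 and 176. Hnrnpd and U2af1 were 1.55-fold and 1.53-fold lower with TNF than without, and Hnrnpul2, Hnrnpdl, Prpf38b and Prpf38a were 1.48-fold to 1.52-fold higher. Second probe sets did not share the rise of Hnrnpul2 and Hnrnpdl, with log2 ratios of 0.05 and -0.28. Among genes with a mean above 428 units 1 of 44 members was higher and 0 lower, against 5.65% and 7.33% of all genes. The members' ratios lay between -0.68 and 1.41 on the log2 scale, 22 above 0 and 26 below. Set against progenitors in place of the day 10 array, the TNF array gave 19 members at least 2-fold lower and 0 higher, with 13.9% and 16.1% of all genes; both comparisons share the progenitor array.

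**Figure D4:**
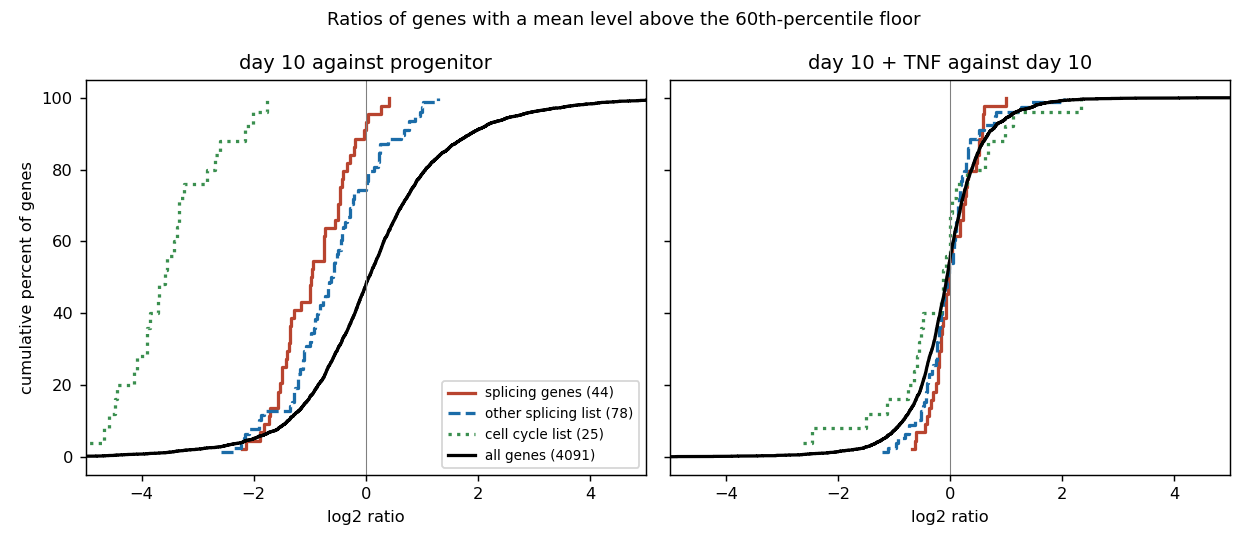
Cumulative distribution of log2 ratios for splicing genes (red), the list of other splicing genes (blue, dashed), cell cycle genes (green, dotted) and all genes (black), each limited to a mean level above 428 units, with the number of genes in the legend. At day 10 against progenitor (left) the red curve lies left of the black one over most of its height, and with TNF against day 10 (right) the curves nearly coincide around 0.

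Splicing genes outside these families were read from a list of 147, of which 103 were measured. At day 10 against progenitor 28 of the 103 (27.2%) were at least 2-fold lower and 3 (2.91%) higher, beside 12.7% and 15.4% of all genes. The median log2 ratio was -0.50. The lowest were Ddx46, a helicase of the U2 snRNP, with 1020.0 units in progenitors, 317 at day 7, 171 at day 10, and 409.6 after TNF and at least 2.38-fold lower, Wdr77, the partner of Prmt5 in Sm protein methylation, at least 4.24-fold lower, Sfpq, a paraspeckle protein, 4.65-fold, and Lsm2, of the ring on U6, 4.51-fold. The highest ratios were those of Ptbp2, a polypyrimidine tract binder, with 239 units in progenitors, 647 at day 7, 583 at day 10, and 828 after TNF, the kinase gene Clk3, 2.02-fold, Luc7l3, a U1-linked factor, just past 2-fold, and Tardbp, an RNA binder also called TDP-43, whose levels of 209 units at day 10 and below 0 in progenitors are both under 428. Next came Ybx1, a Y-box RNA binder, 1.96-fold higher, a log2 ratio of 0.97. Genes with a mean above 8192 units, as Ybx1 had, showed a median of 0.81 in this comparison. Against progenitors at day 7, 14 of 103 (13.6%) were lower and 2 (1.94%) higher, beside 8.63% and 9.68% of all genes. The lowest ratio was that of Srrm2, a serine-arginine-rich matrix protein, with 874 units in progenitors, 83.7 at day 7, 456 at day 10, and 228 after TNF and at least 2.04-fold lower at day 7, followed by Raly, an hnRNP by family, at 3.34-fold lower. At day 10 against day 7, 11 (10.7%) were lower and 5 (4.85%) higher, beside 6.29% and 8.35% of all genes. Luc7l2 was at least 2.09-fold lower and Ybx1 2.67-fold higher. With TNF against day 10, 5 (4.85%) were lower and 4 (3.88%) higher, both under the 6.56% and 6.62% of all genes. The higher ones included Dyrk1a, a kinase of SR proteins, with 1037 units with TNF and 384 without.

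Within that list, of 8 kinases of SR proteins 2 (25.0%) were at least 2-fold lower at day 10 than in progenitors and 1 (12.5%) higher, beside 12.7% and 15.4% of all genes, and the median log2 ratio was 0.11. Clk1, a kinase that releases SR proteins from nuclear speckles, had 3521 units in progenitors, 4257 at day 7, 4079 at day 10, and 4848 after TNF, its lowest level in progenitors. Of 7 genes that assemble snRNPs, 3 were at least 2-fold lower and 0 higher, with a median of -0.98. Smn1, which loads Sm proteins onto snRNA, had 2916 units in progenitors, 1475 at day 7, 656 at day 10, and 457 after TNF, lower at each stage, and Tgs1, which modifies the cap of snRNA, 1118 units in progenitors, 1356 at day 7, 1902 at day 10, and 1854 after TNF, with the day 10 arrays high.

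Cell cycle genes were lower as well, and by more. Of 26 measured, 25 (96.2%) were at least 2-fold lower at day 10 than in progenitors, beside 12.7% of all genes, with a median log2 ratio of -3.56. Their summed level was 138482, 49304, 14619.7 and 10585 units on the progenitor, day 7, day 10 and TNF arrays. Their part in the splicing genes' difference was not tested.

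With 1 array a group, the only spread available is the disagreement between probe sets of a gene. It is read on the same arrays, so it holds no variation between cultures or arrays. For day 10 against progenitor the SD of the difference between the log2 ratios of a gene's 2 brightest probe sets was 1.09 over 632 genes with both above 105 units. It was 0.83 for day 7 against progenitor, 0.85 for day 10 against day 7 and 0.73 for TNF against day 10. At day 10 against progenitor 20 of 50 members had a log2 ratio larger in size than that SD, and the other 30 did not. The share of all genes beyond it was not computed, so this count has no background. Of the 9 members with such a pair of probe sets in that comparison, 5 had the same sign on both. Of the members described on all arrays, 6 of those at least 2-fold lower had a second probe set above 105 units in progenitors or at day 10. On it 2 of the 6, Srsf2 and Hnrnpa2b1, were again at least 2-fold lower, and Srsf1 fell just short of 2-fold. Hnrnpdl was near 0, and Srsf3 and Srsf10 had the opposite sign. The second probe sets of Srsf1, Srsf3 and Srsf10 lay under 428 units at day 10 and in progenitors. For day 10 against day 7, 0 of 3 such members passed 2-fold on the second probe set, and for TNF against day 10, 0 of 2.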

How the data were processed

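Total RNA of 4 mouse cultures was measured on 1 expression array each. The authors deposited 1 linear intensity per array for each of 12654 probe sets; the software, background method and scaling were not named in the sources used here, and 22.8% to 24.3% of values on each array lie below 0. Per the labels, RNA preparation, labelling and hybridisation followed a published protocol.

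Arrays were then brought to the same 75th percentile (factors 0.962 to 1.05). Floors were set at the 40th percentile of scaled values, 105 units (104.7 before rounding), for log2 ratios and counts, and at the 60th percentile, 428 units, for single folds. Counts run over all members and all 8220 genes with 1 symbol, with no filter. Symbols came from the platform annotation, updated through the Entrez number for 10279 of 10298 probe sets with 1 symbol; 363 probe sets with several symbols, 1993 with none and 66 control probe sets were left out. All members may be named; those given on all arrays include the 5 highest and 5 lowest ratios of each comparison, members 2-fold apart at the strict floor and the brightest 2 of each class, and others were added after their values were seen. Members and lists were chosen with earlier results of these data known. Ratios were checked on simulated data. Python 3.11.15, numpy 2.4.6 and pandas 2.3.3 were used. Alternatives were quantile normalization, the values as deposited, both floors, all probe sets, no shared probe sets and a 3-fold rule.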

Additional observations from a re-analysis of the deposited data

How the results depend on the processing

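No paired analysis was possible because each group has 1 array, and for the same reason no array could be left out of a group. Between day 10 and progenitor, 0 members were at least 2-fold higher under every alternative run, and the count of lower members stayed within 1.5 times of 22 except with a 3-fold rule, which gave 6 (6.01% of all genes). With that rule 1 member was lower at day 7 than in progenitors and 0 at day 10 than at day 7, beside 3.21% and 2.37% of all genes. Leaving out genes whose probe set is marked as shared or made under relaxed rules gave 2 members lower at day 10 than at day 7, of 42. Of the 7327 genes left under that setting, 6.32% were lower. For TNF against day 10, the 2 members at least 2-fold higher became 1 with the floor of 428 units, 1 among genes with a mean above it, 0 with the mean of all probe sets and 0 with the 3-fold rule. The shares of all genes higher under these settings were 2.47%, 5.65%, 5.89% and 2.15%. Medians moved by at most 0.13 on the log2 scale over the alternatives run. Putting the TNF array in the place of the day 10 array, an alternative chosen after seeing the data, moved no count by over 1.5 times. Of 38 ratios of described members recomputed on a second probe set, 19 stayed within the SD between probe sets of a gene, 16 moved beyond it and 3 ratios of at least 2-fold reversed; 17 of the 38 had the opposite sign. Among the 16 were Srsf4 (-1.30, against 0.27) and Hnrnpdl (-0.05, against -1.74) at day 10 against progenitor, and Srsf1 (-0.03, against -0.87) and Hnrnpab (-1.34, against -0.48) at day 7. The 3 reversed were Hnrnpdl at day 10 against day 7 (0.69), and Srsf3 (0.23) and Srsf10 (0.22) at day 10 against progenitor; the cause was not tested. The number of arrays, 1 per group, limits the precision of all values, and members near or below 428 units have little signal over background.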
